A study of Mus musculus with 10 samples.

Results

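Of 54337 genes quantified in tumour-infiltrating mouse CD8 T cells, 6 encode the chemokine ligands Ccl1, Ccl3, Ccl4, Ccl5, Ccl9 and Xcl1, which were chosen by gene symbol in the GENCODE M21 annotation. All 6 were found and all 6 passed the low-count filter of the test. The samples were CD8 T cells with a transgenic receptor for the antigen P1A, activated for 24 h, transduced with a retroviral vector and placed in Rag1-/- B10D2 mice that carried the mast cell tumour line P511, a mastocytoma. The vector encoded NFAT5 (libraries 1, 5 and 8), CA-RIT NFAT1 (libraries 2, 4, 9 and 10) or eGFP alone (libraries 3, 6 and 7). The cells were sorted from the tumours after 7 days. CA-RIT NFAT1 is a constitutively active form that cannot pair with AP-1, and eGFP is the control that the other vector groups are set against. All 3 groups share the receptor, the activation, the transduction, the recipients, which lack T and B cells of their own, and the tumour. The labels give the strain of every sample as C57BL/6 and give neither an age nor the number of mice. Nor do they tie each library to its own mouse, and a p-value here covers only the variation among the samples given, which may be technical.

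Chemokines are small secreted proteins that bind G protein-coupled receptors on leukocytes and direct their migration. Activated CD8 T cells are a known source of Ccl3, Ccl4 and Ccl5 and of Xcl1, which draws the Xcr1-positive dendritic cells that present antigen to CD8 T cells. Ccl1 is a ligand of Ccr8, and Ccl9 is a ligand of Ccr1 that is best known from myeloid cells. NFAT proteins bind a short core, GGAAA. NFAT1 is released into the nucleus by calcineurin after receptor signalling and commonly binds DNA beside AP-1, whereas NFAT5 is known for its response to osmotic stress.

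Of the 6 genes, 5 lie on chromosome 11 (GRCm38) and 1 on chromosome 1. Ccl5 (ENSMUSG00000035042, chr11:83525778-83530518, minus strand), Ccl9 (ENSMUSG00000019122, chr11:83572919-83578636, minus), Ccl3 (ENSMUSG00000000982, chr11:83647844-83649355, minus) and Ccl4 (ENSMUSG00000018930, chr11:83662584-83664683, plus) stand in that order within 138.906 kb. Ccl3 and Ccl4 point away from each other across a gap of 13.228 kb, and Ccl6 lies between Ccl9 and Ccl3. Ccl1 (ENSMUSG00000020702, chr11:82176657-82305690, minus) lies 1220 kb before Ccl5. Xcl1 (ENSMUSG00000026573, chr1:164931644-164935527, minus) is the only one that overlaps another gene, Gm20743, which reached at most 0.533 CPM, reads scaled to the library total, in the libraries compared.

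Promoters of 4 of the 6 genes, Ccl1, Ccl3, Ccl9 and Xcl1, were in the RefSeq table for GRCm38.p6. Those of Ccl3 and Ccl1 are printed because their libraries lay on opposite sides of the eGFP libraries in expression. Each is the 250 bases before the RefSeq start site, 5′ to 3′ on the minus strand, chr11:83649379-83649628 for Ccl3 and chr11:82179813-82180062 for Ccl1, and capitals mark GGAAA or its reverse complement TTTCC. The Ccl1 window lies inside the GENCODE span of Ccl1, so the RefSeq start site used is not the 5′ end of that span. Which Ccl1 transcript starts there was not checked.
Ccl3: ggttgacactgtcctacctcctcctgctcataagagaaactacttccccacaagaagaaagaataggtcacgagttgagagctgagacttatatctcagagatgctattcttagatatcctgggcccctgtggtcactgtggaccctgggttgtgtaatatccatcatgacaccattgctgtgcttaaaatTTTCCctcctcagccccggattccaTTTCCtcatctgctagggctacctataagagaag
Ccl1: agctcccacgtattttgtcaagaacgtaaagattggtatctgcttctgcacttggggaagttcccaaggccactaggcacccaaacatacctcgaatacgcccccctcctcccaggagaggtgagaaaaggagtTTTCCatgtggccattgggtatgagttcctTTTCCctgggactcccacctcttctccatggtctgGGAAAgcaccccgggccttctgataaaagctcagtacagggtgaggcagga
Ccl3 held the core 2 times, with first bases at -59 and -34 from the start site, and Ccl1 held it 3 times, at -116, -86 and -51. Ccl9 held it 2 times and Xcl1 held it once. The core is common: 55.6% of 27025 promoters of the same length held at least 1 on either strand. The AP-1 motif TGANTCA was in Ccl9 alone of the 4 and in 6.87% of all promoters. An NF-kB motif was likewise in Ccl9 alone, overlapping its GGAAA at -35, against 3.75% of all promoters. TATAAA was in Ccl9 alone, 3 times, against 13.0%, and TGACG, found in cyclic AMP response elements, was in none of the 4, against 17.9%. A match describes letters in this window and does not show that a factor binds there.

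Of the 10 libraries, 9 held 18.8 to 36.6 M estimated reads. The library labelled eGFP 7 held 51112 reads, of which 0 fell on Cd8a, and the library labelled CA-RIT NFAT1 10 held 32.5 M reads with 1 on Cd8a. Both were set apart, and the 8 others, 3 NFAT5, 3 CA-RIT NFAT1 and 2 eGFP, were compared. Nfat5 reached 48.0 to 87.0 CPM in NFAT5 libraries, 3.01 to 10.7 in CA-RIT NFAT1 libraries and 1.12 to 6.88 in eGFP libraries. Nfatc2, which encodes NFAT1, overlapped between all groups. It had 30.0 to 88.8 CPM in CA-RIT NFAT1, 36.6 to 70.0 CPM in NFAT5 and 4.00 and 47.3 CPM in eGFP libraries. In eGFP 3, 4.83% of 9209 genes with a median of at least 5 CPM had 0 reads, against at most 0.0977% in the other 7. The 10 CD8 T cell markers summed to 27253 to 28793 CPM in NFAT5, 28830 to 34251 CPM in CA-RIT NFAT1 and 33751 to 42588 CPM in eGFP libraries, so that the NFAT5 sums lay below those of eGFP. In these bulk samples, fewer cells of a type and less RNA per cell cannot be told apart.

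Ccl5 was the most abundant of the ligands. In TPM, a unit that scales reads by transcript length and by the library total and so lets genes be set side by side, it had 2788, 3551 and 2028 TPM in the NFAT5 libraries, 5539, 2736 and 1192 TPM in the CA-RIT NFAT1 libraries and 4235 and 4089 TPM in the eGFP libraries. It ranked between 16 and 114 among all genes by TPM in these 8 libraries. It took the first place among the 6 ligands in 7 of them, and in eGFP 3 Ccl4 stood above it. The NFAT5 libraries all lay below both eGFP libraries, whereas the CA-RIT NFAT1 libraries lay on both sides of them.

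Ccl4 was next in the order of levels. It had 610, 509 and 352 TPM in NFAT5 libraries, 862, 632 and 660 TPM in CA-RIT NFAT1 libraries and 4526 and 1283 TPM in eGFP libraries. All 6 NFAT libraries lay below both eGFP libraries, and all 3 CA-RIT NFAT1 libraries lay above the NFAT5 libraries. The eGFP libraries themselves differed 4.37-fold in CPM, against 1.36-fold among CA-RIT NFAT1 and 1.49-fold among NFAT5 libraries.

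Ccl3 came after Ccl4 and Ccl5 in every one of the 8 libraries. It had 335, 196 and 101 TPM in NFAT5 libraries, 493, 191 and 358 TPM in CA-RIT NFAT1 libraries and 2241 and 695 TPM in eGFP libraries. As for Ccl4, the lower eGFP library, eGFP 6, stood above every NFAT5 and CA-RIT NFAT1 library, and eGFP 3 stood far above eGFP 6. The NFAT5 and CA-RIT NFAT1 libraries overlapped.

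Xcl1 ranked 4 among the 6 ligands in all 8 libraries. It had 44.9, 28.5 and 34.0 TPM in NFAT5 libraries, 171, 26.2 and 209 TPM in CA-RIT NFAT1 libraries and 73.3 and 19.0 TPM in eGFP libraries. CA-RIT NFAT1 2 and 9 were the highest of all, while CA-RIT NFAT1 4 lay below every NFAT5 library, so no pair of groups was separate.

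Ccl1 and Ccl9 were the least abundant and exchanged the last places. Ccl1 had 2.97, 1.48 and 16.3 TPM in NFAT5 libraries, 4.02, 5.78 and 11.4 TPM in CA-RIT NFAT1 libraries, and 0 and 0.601 TPM in eGFP libraries. These rest on 23, 10 and 142 estimated reads in NFAT5, 39, 57 and 111 in CA-RIT NFAT1, and 0 and 5 reads in eGFP libraries. The 0 in eGFP 3 allows up to 0.0821 CPM, the level of 3 reads and a limit for counting error only. All 6 NFAT libraries lay above both eGFP libraries, and the NFAT5 and CA-RIT NFAT1 libraries overlapped.

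Ccl9 had 1.91, 0.287 and 2.30 TPM in NFAT5 libraries, 5.66, 0.980 and 2.59 TPM in CA-RIT NFAT1 libraries and 6.95 and 1.35 TPM in eGFP libraries. The 3 groups overlapped throughout. Nearly all reads of the more abundant ligands came from a single annotated transcript: Ccl3, Ccl4 and Xcl1 have 1 each, and Ccl5-201 took at least 98.9% of the Ccl5 reads in each of the 8 libraries. Ccl1-202 took 80.3% to 100.0% of the Ccl1 reads where any were found, and Ccl9-201 took 69.6% to 100.0% of the Ccl9 reads.

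**Figure D1:**
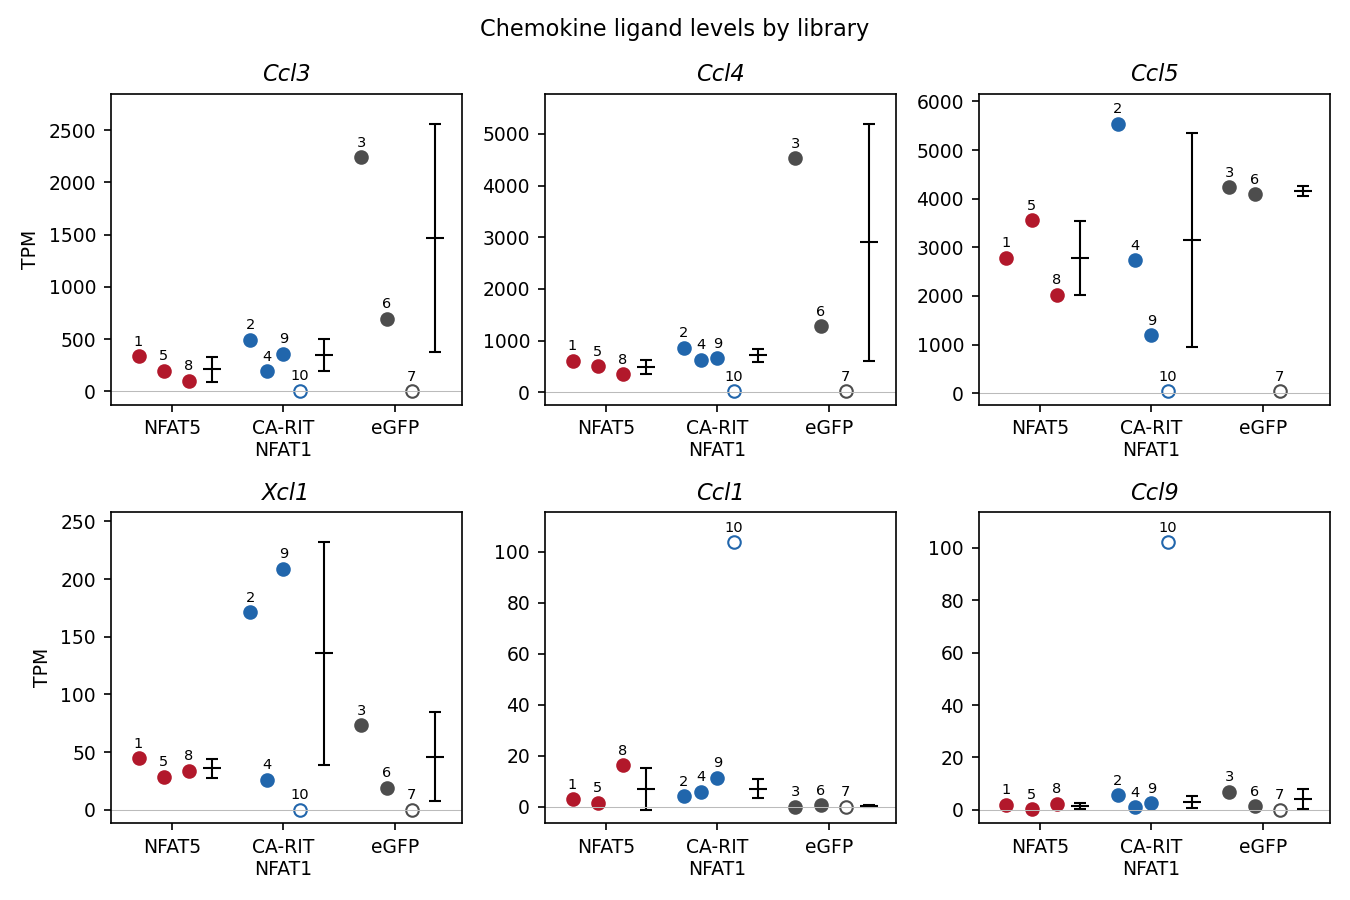
TPM of each ligand (vertical axis, linear, a scale for each gene) in each library, with the vector group along the horizontal axis and the library number beside each point. Bars give the mean ± SD of the filled points (n = 3 NFAT5, 3 CA-RIT NFAT1 and 2 eGFP), and open points are the 2 libraries set apart; for Ccl3 and Ccl4, both filled eGFP points stand above all filled NFAT5 and CA-RIT NFAT1 points.

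The set of messages was dominated by Ccl5, Ccl4 and Ccl3 in each of the 8 libraries. Ccl5 made up 73.7%, 82.9% and 80.1% of the summed TPM of the 6 ligands in NFAT5 libraries, 78.3%, 76.2% and 49.0% in CA-RIT NFAT1 libraries and 38.2% and 67.2% in eGFP libraries. The shares in eGFP libraries and in CA-RIT NFAT1 9 were the lowest. Ccl4 was present at 0.219, 0.143 and 0.173 of the Ccl5 TPM in NFAT5 libraries, 0.156, 0.231 and 0.554 in CA-RIT NFAT1 libraries and 1.07 and 0.314 in eGFP libraries. This ratio was lower in each NFAT5 library than in both eGFP libraries, and CA-RIT NFAT1 9 lay between the 2 eGFP libraries.

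**Figure D2:**
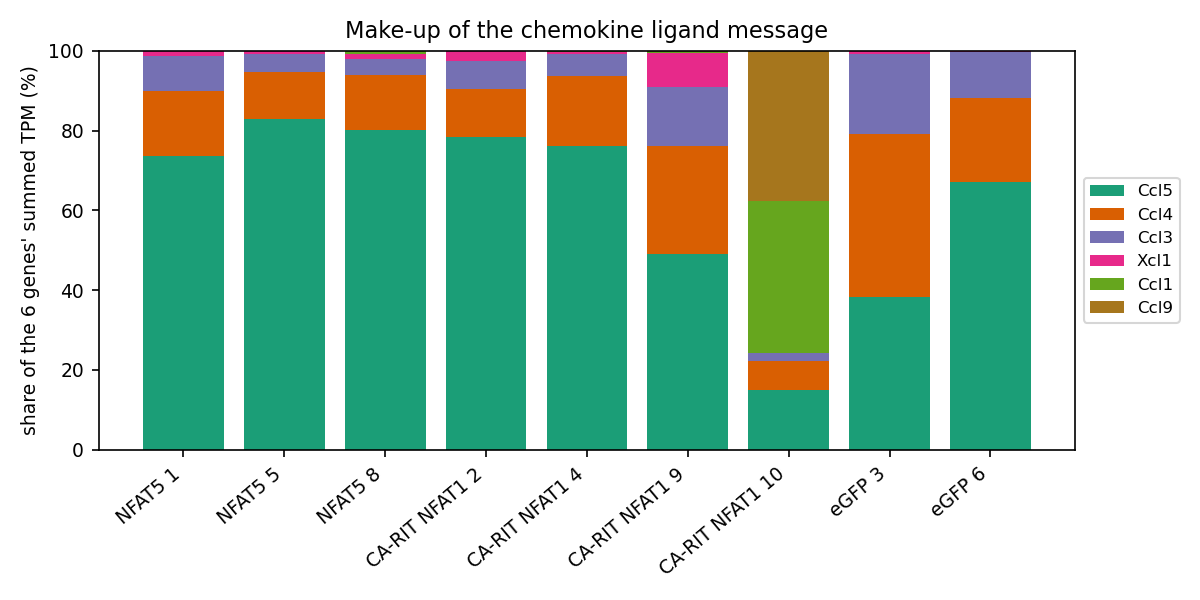
Share of each ligand in the summed TPM of the 6 (vertical axis, percent) in 9 libraries; eGFP 7, with 51112 reads in all, is not drawn. Ccl5 leads in 7 of the 8 libraries compared, Ccl4 leads in eGFP 3, and CA-RIT NFAT1 10 stands apart with 38.1% Ccl1 and 37.5% Ccl9.

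The comparison of NFAT5 with eGFP asks what added NFAT5 did to these messages inside the tumour. Ccl3 averaged 123 ± 59.0 CPM in NFAT5 libraries and 989 ± 827 CPM in eGFP libraries (SD, n = 3 and 2). Its log2 fold change was -3.16 ± 0.65 (SE), and with Benjamini-Hochberg adjustment over 14473 genes the quasi-likelihood test of edgeR gave an adjusted p of 0.654. Ccl4 averaged 252 ± 51.2 CPM in NFAT5 libraries and 1749 ± 1551 CPM in eGFP libraries, a log2 fold change of -2.94 ± 0.54 with an edgeR adjusted p of 0.654. Neither passed the threshold of 0.05, although Ccl4 ranked 7 and Ccl3 ranked 17 of 14473 genes by p.

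DESeq2 on the same 8 libraries called both lower, with adjusted p values of 6.92e-04 for Ccl3 and 1.19e-04 for Ccl4, and limma voom gave 0.717 for each. The size of the difference rests on eGFP 3: without it, the log2 fold change was -1.75 for Ccl3 and -1.40 for Ccl4. Without eGFP 6 the values were -3.85 and -3.66. In each of these fits the eGFP library left was the only control, and its spread was assumed to be that of the other groups. Set against a T cell gene of the same library, Ccl3 had 31.1, 18.4 and 10.6 reads per 100 reads of Cd8a in NFAT5 libraries, against 159 and 64.3 in eGFP libraries. For Ccl4 these were 49.2, 41.3 and 32.0 in NFAT5 libraries, against 288 and 104 in eGFP libraries, so the groups did not overlap on this scale either.

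Ccl5 averaged 1011 ± 295 CPM in NFAT5 libraries and 1649 ± 277 CPM in eGFP libraries, with a log2 fold change of -0.82 ± 0.52 and an edgeR adjusted p of 0.669. Per 100 reads of Cd8a its groups overlapped, at 156, 202 and 129 reads in NFAT5 and 187 and 231 in eGFP libraries. Ccl1 averaged 2.56 ± 3.17 CPM in NFAT5 libraries and 0.101 ± 0.143 CPM in eGFP libraries. Its log2 fold change of 4.61 ± 1.86 (edgeR adjusted p 0.654, DESeq2 0.179) rests on the 5 reads of eGFP 6, on the 0 of eGFP 3 and on the reads of NFAT5 8. It was 2.78 without NFAT5 8 and 3.62 without eGFP 3. Xcl1 had a log2 fold change of -0.74 ± 0.86 (edgeR adjusted p 0.797) and Ccl9 of -1.47 ± 1.08 (0.692). Both took the other sign without eGFP 3, at 0.92 for Xcl1 and 1.20 for Ccl9.

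Of the 6 ligands, edgeR thus called 0 between NFAT5 and eGFP, against 0% of all genes. Limma voom and edgeR with all 10 libraries also called 0, against 0% for each, and DESeq2 called 2, both lower, against 0.8% of genes called and 0.223% called lower. At an unadjusted p under 0.05, edgeR placed 3 of the 6 (Ccl1, Ccl3 and Ccl4), against 7.26% of all genes. Log2 fold changes were below 0 for 5 of the 6, against 45.8% of all genes. Libraries of the groups did not overlap for 3 genes lower in NFAT5 (Ccl3, Ccl4 and Ccl5), against 8.15% of all genes, and for 1 gene higher in NFAT5 (Ccl1), against 14.2%. The median log2 fold change was -1.14 for the 6 ligands and 0.08 over all genes. Without eGFP 3 the values of Ccl9 and Xcl1 were above 0, at 1.20 and 0.92. The count below 0 and the median of the ligands therefore depend on that library.

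Between CA-RIT NFAT1 and eGFP, the comparison for an NFAT1 that acts without AP-1, Ccl3 and Ccl4 were again the ligands that stood lowest. The same 2 eGFP libraries are the controls here as for NFAT5, so the 2 comparisons are not independent. Ccl3 averaged 201 ± 83.1 CPM in CA-RIT NFAT1 libraries and 989 ± 827 CPM in eGFP libraries, with a log2 fold change of -2.47 ± 0.64 and an edgeR adjusted p of 0.679. Ccl4 averaged 361 ± 56.7 CPM in CA-RIT NFAT1 libraries and 1749 ± 1551 CPM in eGFP libraries, with a log2 fold change of -2.44 ± 0.53 and an edgeR adjusted p of 0.679. DESeq2 called both lower, with adjusted p values of 0.0307 for Ccl3 and 0.00485 for Ccl4, and limma voom gave 0.685 for each. Without eGFP 3 the log2 fold changes were -1.06 for Ccl3 and -0.90 for Ccl4, and without eGFP 6 they were -3.16 for both. The eGFP library left was again the only control in each of these fits. Per 100 reads of Cd8a, Ccl4 had 72.8, 53.6 and 55.3 reads in CA-RIT NFAT1 libraries, against 288 and 104 in eGFP libraries. Ccl3 had 46.7, 18.7 and 35.4 reads per 100 of Cd8a in CA-RIT NFAT1 libraries, against 159 and 64.3 in eGFP libraries.

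Ccl1 averaged 2.41 ± 1.37 CPM in CA-RIT NFAT1 libraries and 0.101 ± 0.143 CPM in eGFP libraries, a log2 fold change of 4.50 ± 1.85 (edgeR adjusted p 0.679, DESeq2 0.255). That value was 3.51 without eGFP 3. Xcl1 averaged 46.5 ± 33.8 CPM in CA-RIT NFAT1 libraries and 18.6 ± 17.2 CPM in eGFP libraries, a log2 fold change of 1.14 ± 0.90 (edgeR adjusted p 0.715), and the libraries overlapped. This value was 0.40 without eGFP 6 and 2.79 without eGFP 3. For Ccl5 the log2 fold change was -0.74 ± 0.52 (edgeR adjusted p 0.692) and for Ccl9 it was -0.95 ± 1.08 (0.793). The sign of the Ccl9 value turned to 1.70 without eGFP 3 and to 2.05 with all 10 libraries.

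EdgeR called 0 of the 6 ligands between CA-RIT NFAT1 and eGFP, against 0% of all genes, as did limma voom and edgeR with 10 libraries, against 0% each. DESeq2 called 2, both lower, against 0.425% of genes called and 0.113% called lower. At an unadjusted p under 0.05, 3 of the 6 (Ccl1, Ccl3 and Ccl4) were found by edgeR, against 6.44% of all genes. Log2 fold changes were below 0 for 4 of the 6, against 45.3%. Of these, the Ccl9 value was 1.70 without eGFP 3. Libraries did not overlap for 2 genes lower in CA-RIT NFAT1 (Ccl3 and Ccl4), against 6.7% of all genes, and for 1 gene higher (Ccl1), against 14.2%.

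**Figure D3:**
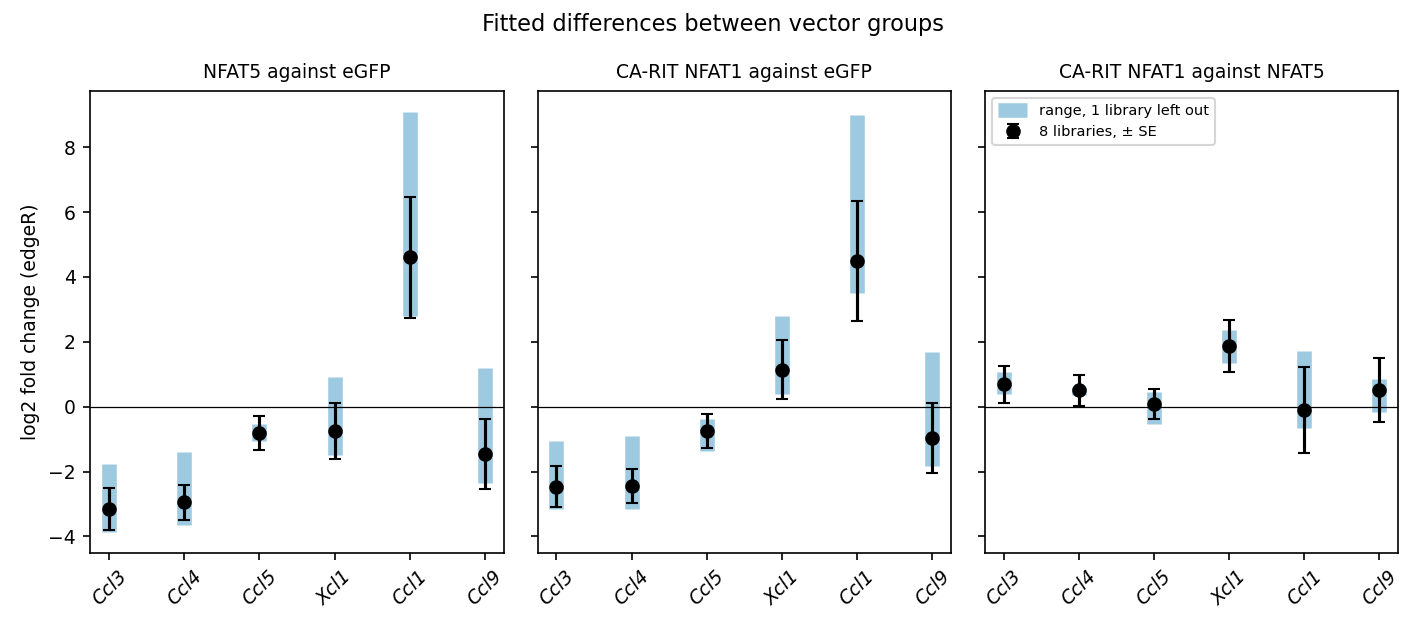
Log2 fold change of each ligand fitted by edgeR in the 3 comparisons (vertical axis), with points and bars for the 8-library value ± SE and pale bands for the range over fits that each leave out 1 library. Ccl3 and Ccl4 stay below 0 in both comparisons with eGFP, between -3.85 and -1.06 for Ccl3, while the bands of Ccl9 cross 0 in all 3 comparisons; the upper ends for Ccl1 in the comparisons with eGFP are fits whose only eGFP library had 0 reads.

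Set directly against each other, CA-RIT NFAT1 and NFAT5 gave smaller differences, apart from Xcl1. Xcl1 averaged 46.5 ± 33.8 CPM in CA-RIT NFAT1 libraries and 12.4 ± 1.92 CPM in NFAT5 libraries (SD, n = 3 each), with a log2 fold change of 1.88 ± 0.80. The edgeR adjusted p was 1.00, and the libraries overlapped because CA-RIT NFAT1 4 had 8.74 CPM, against 10.3 to 14.2 CPM in NFAT5 libraries. Ccl4 was separate between the groups, with 312 to 423 CPM in CA-RIT NFAT1 libraries and 193 to 288 CPM in NFAT5 libraries. Its log2 fold change was 0.50 ± 0.48 (edgeR adjusted p 1.00). Ccl3 had a log2 fold change of 0.69 ± 0.58 and Ccl9 one of 0.51 ± 0.99, each with an edgeR adjusted p of 1.00. For Ccl9, Ccl5 (0.08 ± 0.47) and Ccl1 (-0.11 ± 1.31) the error was larger than the difference, and the sign changed between alternatives.

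Of the 6 ligands, 0 were called between CA-RIT NFAT1 and NFAT5 by edgeR, limma voom or edgeR with 10 libraries, against 0% of all genes for each. DESeq2 also called 0 of them, against 0.00694% of all genes. At an unadjusted p under 0.05 there was 1 of the 6 (Xcl1), against 1.13%. Log2 fold changes were below 0 for 1 of the 6, against 49.5%. Libraries did not overlap for 1 gene higher in CA-RIT NFAT1 (Ccl4), against 4.06%, and for 0 lower, against 2.77%. In the test for any difference among the 3 groups, edgeR, limma voom and edgeR with 10 libraries called 0 of the 6, against 0% of all genes for each, and DESeq2 called 2 (Ccl3 and Ccl4), against 0.28%.

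Ccl3 and Ccl4 moved together from library to library. Pearson's r between their log2(CPM + 1) values was 0.965 over the 8 libraries and 0.932 over the 7 without eGFP 3. The ratio of Ccl3 to Ccl4 TPM stayed between 0.287 and 0.572 while Ccl4 itself spanned 352 to 4526 TPM. By the same measure Ccl3 and Ccl5 had an r of 0.514, which was 0.316 without eGFP 3, and Ccl4 and Xcl1 had 0.213. Ccl1 ran against Ccl5, with -0.758 over 8 and -0.695 over 7 libraries. All these values share the libraries' depth and vector groups and are descriptions over few points.

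**Figure D4:**
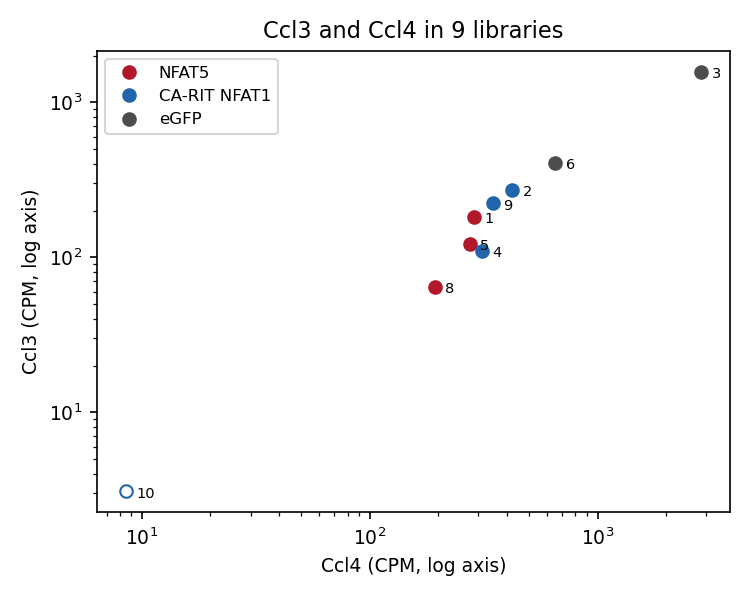
Ccl3 (vertical) against Ccl4 (horizontal) in CPM, both axes logarithmic, 1 point a library with its number; filled points are the 8 libraries compared, the open point is CA-RIT NFAT1 10, and eGFP 7, with 0 Ccl3 reads, is not drawn. The points lie along a single band, with eGFP 3 and eGFP 6 at the upper right and NFAT5 8 the lowest of the filled points.

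Among 9298 genes averaging 5 CPM or more, the closest in pattern over the 8 libraries were named for each ligand, with r over the 7 libraries without eGFP 3 beside them. They were picked as the highest of 9298 values over few libraries, so a high r is in part a result of that choice. Without eGFP 3 their ranks ran from 1, as for Ghdc with Ccl3, to 68, for Tm2d1 with Ccl4. For Ccl3 they were Ghdc (0.986, without eGFP 3 0.978), the chemokine receptor gene Cxcr6 (0.984, 0.957) and Dbt (0.976, 0.935), and Ccl4 ranked 8. For Ccl4 they were Glipr1 (0.990, 0.968), the T cell adhesion gene Cd2 (0.978, 0.883) and Tm2d1 (0.976, 0.879). For Ccl5 they were Tex264 (0.963, 0.958), Gimap7, a GTPase gene of lymphocytes (0.951, 0.940), and the antiproliferative gene Btg2 (0.946, 0.953). For Ccl1 they were Zfp207 (0.967, 0.959), Cxcl10, an interferon-induced chemokine that binds Cxcr3 (0.959, 0.978), and Nup85, of the nuclear pore (0.957, 0.952). For Ccl9 they were Ctsh, which encodes cathepsin H (0.970, 0.943), the activation marker Cd83 (0.965, 0.949) and the peroxisome gene Pex16 (0.956, 0.911). For Xcl1 they were Ash2l, of the histone H3 lysine methyltransferase complexes (0.971, 0.969), the urea cycle gene Asl (0.903, 0.902) and 2310061I04Rik (0.901, 0.949).

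Of the 29 other chemokine ligand genes, 13 had enough reads to be tested. None of the 13 passed the edgeR threshold in any of the 3 comparisons. At an unadjusted p under 0.05 there was 1 between NFAT5 and eGFP, against 7.26% of all genes. There were 0 between CA-RIT NFAT1 and eGFP, against 6.44%, and 1 between CA-RIT NFAT1 and NFAT5, against 1.13%. Those with a mean of at least 5 TPM were Ccl24, Ccl6, Ccl7, Ccl8 and Pf4. Ccl6, the neighbour of Ccl9 and a chemokine of myeloid cells, had 7.75, 3.82 and 9.92 TPM in NFAT5 libraries, 17.3, 3.57 and 3.66 TPM in CA-RIT NFAT1 libraries and 2.79 and 1.56 TPM in eGFP libraries. Both NFAT groups lay above eGFP for this gene (log2 fold changes 1.62 ± 0.91 and 1.53 ± 0.90, edgeR adjusted p 0.659 and 0.679). Over all genes, 14.2% were separate and higher than eGFP in each NFAT group. Ccl24, Ccl7, Ccl8 and Pf4 overlapped between all groups. Ccl8, another ligand of Ccr8 in the mouse, had from 3.39 to 49.3 TPM in NFAT5, 1.59 to 96.1 TPM in CA-RIT NFAT1 and 1.15 to 120 TPM in eGFP libraries.

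On the receptor side, 17 of 23 genes were tested and 0 passed in any of the 3 comparisons by edgeR. At an unadjusted p under 0.05 there were 3 between NFAT5 and eGFP, against 7.26% of all genes. There was 1 between CA-RIT NFAT1 and eGFP, against 6.44%, and 0 between CA-RIT NFAT1 and NFAT5, against 1.13%. Cxcr6, which marks T cells of tissues and tumours, had 112, 81.6 and 45.9 TPM in NFAT5 libraries, 130, 76.9 and 84.4 TPM in CA-RIT NFAT1 libraries and 253 and 156 TPM in eGFP libraries. Every NFAT library lay below both eGFP libraries for Cxcr6 (log2 fold changes -1.65 ± 0.40 for NFAT5 and -1.41 ± 0.40 for CA-RIT NFAT1, edgeR adjusted p 0.654 and 0.679). Cxcr4, the receptor of Cxcl12, lay the other way, with 15.4, 23.6 and 29.1 TPM in NFAT5 libraries, 14.4, 25.9 and 14.1 TPM in CA-RIT NFAT1 libraries and 5.91 and 10.6 TPM in eGFP libraries. Its log2 fold changes against eGFP were 1.32 ± 0.50 for NFAT5 and 0.94 ± 0.49 for CA-RIT NFAT1 (edgeR adjusted p 0.654 and 0.679). Among all genes, 8.15% in NFAT5 and 6.7% in CA-RIT NFAT1 were separate and lower than eGFP. In each group 14.2% were separate and higher.

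Of the other receptors described, Ccr2, Ccr7 and Cx3cr1 overlapped between all groups. Ccrl2 lay above eGFP in CA-RIT NFAT1 libraries, where 14.2% of all genes were separate and higher. Cxcr3 was lower in CPM in every CA-RIT NFAT1 library than in every NFAT5 library, as were 2.77% of all genes. The TPM ranges of Cxcr3 (165 to 180 in CA-RIT NFAT1 and 168 to 201 in NFAT5) overlapped. The median log2 fold change was -1.15 over the 13 other ligands and -0.64 over the 17 receptors between NFAT5 and eGFP, against 0.08 over all genes. Between CA-RIT NFAT1 and eGFP the medians were -2.26 for the other ligands and -0.57 for the receptors, against 0.10 over all genes. The 2 eGFP libraries behind the medians of the other ligands lay far apart, and a shared fall was not tested. All 29 summed to 174 CPM in eGFP 3 and 6.72 CPM in eGFP 6. Between these lay the NFAT5 libraries, at 17.5 to 76.0 CPM, and the CA-RIT NFAT1 libraries, at 18.4 to 60.2 CPM.

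Messages of other cells were low in the 8 libraries. The 14 macrophage markers summed to 65.7 to 190 CPM in NFAT5, 84.1 to 240 CPM in CA-RIT NFAT1 and 116 to 222 CPM in eGFP libraries, and the 12 markers of mast cells and P511 to 152 to 267 CPM in NFAT5, 79.2 to 224 CPM in CA-RIT NFAT1 and 56.6 to 250 CPM in eGFP libraries. Lyz2, the lysozyme gene of myeloid cells, had 12.6 to 67.4 CPM in NFAT5 libraries and 12.2 to 53.7 CPM in CA-RIT NFAT1 libraries, against 0 in both eGFP libraries, where 3 reads would be 0.0821 and 0.121 CPM. The other macrophage markers did not share one direction. Between NFAT5 and eGFP, 5 of the 14 had log2 fold changes above 0 and 9 below, with a median of -0.90, and between CA-RIT NFAT1 and eGFP 8 were above and 6 below, with a median of 0.17. Of 5 markers named here after their values were seen, Chil3 and Csf1r overlapped between all groups. In CPM, Adgre1 was separate and higher in NFAT5 than in eGFP. Fcgr1 was separate and higher in both NFAT groups than in eGFP, and Cd68 was separate and lower in NFAT5 than in eGFP. Over all genes, 14.2% were separate and higher than eGFP in each NFAT group, and 8.15% were separate and lower in NFAT5. The 9 neutrophil markers summed to 1.25 to 3.57 CPM in NFAT5, 1.24 to 4.54 CPM in CA-RIT NFAT1 and 0 and 0.162 CPM in eGFP libraries. Dendritic cell markers summed to 76.6 to 134 CPM in NFAT5, 48.1 to 186 CPM in CA-RIT NFAT1 and 37.0 to 102 CPM in eGFP libraries, and NK markers to 23.5 to 31.4 CPM in NFAT5, 11.7 to 32.5 CPM in CA-RIT NFAT1 and 16.8 to 35.5 CPM in eGFP libraries. Most of the dendritic sum in each library came from the single gene Itgax. It had 61.8 to 125 CPM in NFAT5, 33.8 to 174 CPM in CA-RIT NFAT1 and 23.7 and 92.0 CPM in eGFP libraries. B cell and CD4 T cell markers summed to at most 8.54 CPM in any of the 8. The part of these messages in the differences of the ligands was not tested.

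CA-RIT NFAT1 10, the library with 1 Cd8a read, had more Ccl1 and Ccl9 than any of the 8 libraries compared. Ccl1 stood at 104 TPM and Ccl9 at 102 TPM there, while Ccl3 had 6.07, Ccl4 19.2 and Ccl5 41.1 TPM and Xcl1 had 0 reads. In the same library the markers of mast cells and P511 summed to 5122 CPM, those of macrophages to 4699 CPM and those of CD8 T cells to 220 CPM. Ccl24 stood at 1524 TPM there, against at most 52.4 TPM in the 8 libraries compared. In eGFP 7, with 51112 reads, 4 of the 6 ligands (Ccl1, Ccl3, Ccl9 and Xcl1) had 0 reads, and the 0s there allow up to 58.7 CPM. Ccl1 and Ccl9 stayed below that limit in the 8 libraries compared, so such levels were not detectable at this depth. Ccl3 had at least 64.0 CPM in each of the 8 libraries, above that limit. Ccl4 and Ccl5 had 1 read each in eGFP 7. The reason for these low values was not tested.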

How the data were processed

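RNA of sorted CD8 T cells was sequenced, and the quantification tool was Salmon 0.14.1, with mm10 and GRCm38.p6 as builds, per the submitters' processing notes. The deposited estimated counts per transcript, made by the authors, were summed over the transcripts of 54337 genes in GENCODE M21 and rounded; 139966 of 140919 transcripts matched, and at most 0.292% of a library's reads did not. The release was inferred, since 99.9% of matched lengths were identical. The deposited TPM values were summed per gene and used for levels only. CPM scale a gene's reads to the library's reads on matched genes. Whether the labels' C57BL/6 strain describes donor cells or hosts is not given in the sources used here.

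The test was edgeR 4.0.16 (R 4.3.3): quasi-likelihood, TMM scaling, default filter (14473 genes), 3 groups in a fit of 8 libraries, Benjamini-Hochberg threshold 0.05. Each SE is the log2 fold change over the root of its F statistic. DESeq2 1.42.0, limma 3.58.1 voom with quality weights, RLE scaling, other filters, only the compared groups, all 10 libraries and each library left out were alternatives. The fits were tested on simulated data with a smaller spread than these libraries have. That check does not show which changes could be found at the spread of these data. The members, lists and tests were chosen with earlier results of these data known. Named genes were the members, the 3 genes most like each member, and listed ligands and receptors with a mean of at least 5 TPM; defining markers were also named. A gene that this rule covers is not reported here.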

Additional observations from a re-analysis of the deposited data

Results flagged for a closer look

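Ccl1 in CA-RIT NFAT1 10 stood at 31.3 CPM, far from the other CA-RIT NFAT1 libraries at 1.31, 1.97 and 3.94 CPM. The gap to the nearest library was 0.913 of the group's range, above the Dixon limit of 0.829 for 4 samples. Ccl9 in the same library stood at 103 CPM, against 5.66, 1.38 and 2.52 CPM in the other 3, with a gap of 0.958 of the range. Chance alone marks about 1 in 20 groups by this measure. Both values also come from a library outside the comparisons, and both are above the 2 eGFP libraries compared, which had 0 and 0.202 CPM of Ccl1 and 9.86 and 0.931 CPM of Ccl9. The 0 reads of both genes in eGFP 7 allow up to 58.7 CPM, so Ccl1 cannot be ranked against that library. CA-RIT NFAT1 10 held 1 Cd8a read, and the mast cell and P511 markers summed to 5122 CPM in it. The source of the reads was not tested.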

How the results depend on the processing

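DESeq2 called 104 genes and 2 ligands between NFAT5 and eGFP, 60 genes and 2 ligands between CA-RIT NFAT1 and eGFP, 1 gene between CA-RIT NFAT1 and NFAT5, and 38 genes and 2 ligands in the test of any difference, where edgeR called 0. The cause was not tested. With each library left out in turn, edgeR called 0 to 3294 genes and 0 to 3 ligands between NFAT5 and eGFP, 0 to 3410 genes and 0 to 3 ligands between CA-RIT NFAT1 and eGFP, 0 to 0 of both between CA-RIT NFAT1 and NFAT5, and 0 to 2374 genes and 0 to 2 ligands in the test of any difference. The high ends are all without eGFP 6; the ligands were then Ccl1, Ccl3 and Ccl4 in both comparisons with eGFP, and the Ccl1 values of 9.10 and 9.00, against a lone library with 0 reads, depend on the prior count and are no bound. Of 264 alternative values of single ligands, 240 kept their direction and side of the threshold and 14 changed sign. Between CA-RIT NFAT1 and NFAT5, voom gave 0.75 for Ccl1 and -0.21 for Ccl5, and 10 libraries gave 1.72 and -0.34. With 10 libraries, Ccl9 between CA-RIT NFAT1 and eGFP was 2.05. Over single libraries left out, the values between CA-RIT NFAT1 and NFAT5 ran from -0.66 to 1.72 for Ccl1, -0.55 to 0.45 for Ccl5 and -0.16 to 0.86 for Ccl9. Between NFAT5 and eGFP they ran from -2.34 to 1.20 for Ccl9 and -1.48 to 0.92 for Xcl1, and between CA-RIT NFAT1 and eGFP from -1.83 to 1.70 for Ccl9. RLE scaling, the other filters and fits of only the compared groups turned no ligand's sign and changed no call. The stricter filter, with a mean of at least 5 CPM, left out Ccl1 and Ccl9, so it did not test them. No paired analysis was possible because the groups share no replicate numbers. With 2 eGFP libraries that differ by 4.37-fold in Ccl4, the control level limits every comparison with eGFP, and the few reads of Ccl1 and Ccl9 limit theirs further.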
